A study of Mus musculus with 16 samples.

Results

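The genes described here are those that code for collagen chains, taken as every gene of the deposited RNA-seq table whose symbol has the form Col, a number, a, a number. That rule found 44 of the table's 29060 named genes. They were grouped by the supramolecular form of the protein, as 11 fibrillar, 9 fibril-associated and 9 network-forming chains and 15 others (beaded filaments, multiplexins, transmembrane and remaining collagens). Their levels were followed in 16 libraries from mouse fat cultures, 4 each of inguinal white (iWAT) and interscapular brown (iBAT) cells, treated with Fgf8b, a secreted fibroblast growth factor, or left as controls. The design text calls the cells primary preadipocytes grown from the stromal-vascular fraction, the connective-tissue and vessel cells left once fat cells are removed, and the sample labels call them primary adipocytes. All donors carried the same background, C57BL/6N mice with a UCP1 reporter, so the controls carry the reporter too. No label or text used here states the dose, the time or the age of the mice. The design text speaks of 3 independent cultures where each group has 4 libraries, so some libraries of a group may share a culture, and the p-values measure the spread between these libraries.

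Collagens are triple helices of chains wound round each other, and the chains of a type come from separate genes that the cell must supply together. Fibrillar collagens are secreted as procollagens, trimmed at both ends and packed into the tensile fibrils of connective tissue. Fibril-associated collagens sit on the surface of those fibrils, and network collagens build the sheets of basement membranes and related lattices. In fat tissue the fibroblast-like stromal cells are known as the main makers of the fibrillar matrix, and each fat cell is wrapped in a basement membrane of type IV collagen.

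Expression was given as RPKM, reads scaled to transcript length and to the depth of the library, which sets levels of different genes on a scale per length but measures each gene only relative to its library. The libraries held about 13700000 to 20100000 reads, a depth recovered here from the steps between low values. Genes of the FGF and ERK response rose with Fgf8b in every treated library: Dusp6 went from 3.98 ± 0.455 to 26.4 ± 2.55 RPKM (mean ± SD, n = 4 libraries here and throughout) in white and from 3.67 ± 0.392 to 40.7 ± 1.14 in brown cultures, and Spry4, Etv4 and Etv5 also rose in both. The depot labels were checked by Zic1, at 12.8 ± 0.468 RPKM in brown and 0.176 ± 0.0497 in white controls, and by Hoxc10, at 45.7 ± 1.16 in white and 2.67 ± 0.383 in brown controls. All 8 preadipocyte and fibroblast markers passed the filter on low values, while the 4 mature adipocyte markers (Adipoq, Plin1, Cidec, Lep) summed to at most 0.118 RPKM in any library. Endothelial and leukocyte markers were low. The endothelial list summed to 11.1 to 11.998 RPKM in white and 7.65 to 8.92 in brown controls. Most of it was Tek, averaging 9.29 and 6.58, and Tie1 and Vwf were under 0.06 in every library. The leukocyte list summed to at most 5.47, with Lyz2 averaging 2.96 RPKM in brown controls and Cd3e at 0. The skeletal muscle list, most of it Acta1, summed to at most 10.5 RPKM, and the cartilage list, most of it Sox9, to at most 25.6. The pericyte and smooth muscle list, almost all of it Acta2, summed to 602 to 684 RPKM in white and 925 to 1136 in brown controls. Brown control 15 often lay at the edge of its group. Of the 23 members averaging 1 RPKM or more over all libraries, it was below the range of the other 3 libraries for 12 and above it for 7. Every gene has a lowest and a highest library, so any library lies outside the others for some genes. The share over all genes was not counted. Col1a1 in brown control 15 differed from the median of the other 3 by -0.38 on the log2 scale.

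The stretches of DNA just before the start of 6 members are shown because these members mark the range of responses: Col1a2, Col3a1 and Col6a1 fell strongly in both cultures, Col8a2 was almost lost while Col8a1, the other chain of its type, did not pass the test in white cultures, and Col7a1 was the tested member that rose. Each is the 250 bases before the RefSeq start (GRCm38.p6), written 5′ to 3′ on the gene's strand, with capitals for any match, on either strand, to TATAAA (the TATA box), to CCAAT, to GGGCGG (the GC box), to TGANTCA (the AP-1 motif) or to GGAATG (the TEAD motif). The windows are chr6:4505368-4505617 (plus strand) for Col1a2, chr1:45311288-45311537 (plus strand) for Col3a1, chr10:76726045-76726294 (minus strand) for Col6a1, chr16:57754738-57754987 (minus strand) for Col8a1, chr4:126286544-126286793 (plus strand) for Col8a2 and chr9:108953336-108953585 (plus strand) for Col7a1.
Col1a2: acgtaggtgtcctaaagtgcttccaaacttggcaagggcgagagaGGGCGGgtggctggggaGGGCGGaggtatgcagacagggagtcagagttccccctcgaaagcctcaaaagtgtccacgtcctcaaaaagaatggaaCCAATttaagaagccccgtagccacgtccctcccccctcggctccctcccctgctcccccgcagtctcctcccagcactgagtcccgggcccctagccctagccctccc
Col3a1: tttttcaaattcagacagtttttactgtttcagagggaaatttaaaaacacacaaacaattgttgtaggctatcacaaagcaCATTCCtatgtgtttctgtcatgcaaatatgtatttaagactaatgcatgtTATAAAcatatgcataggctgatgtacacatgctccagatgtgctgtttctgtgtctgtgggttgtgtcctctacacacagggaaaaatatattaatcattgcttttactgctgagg
Col6a1: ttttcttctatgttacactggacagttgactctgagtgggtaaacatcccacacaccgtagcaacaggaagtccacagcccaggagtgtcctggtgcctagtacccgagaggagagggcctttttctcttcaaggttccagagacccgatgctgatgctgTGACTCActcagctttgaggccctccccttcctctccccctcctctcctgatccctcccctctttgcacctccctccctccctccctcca
Col8a1: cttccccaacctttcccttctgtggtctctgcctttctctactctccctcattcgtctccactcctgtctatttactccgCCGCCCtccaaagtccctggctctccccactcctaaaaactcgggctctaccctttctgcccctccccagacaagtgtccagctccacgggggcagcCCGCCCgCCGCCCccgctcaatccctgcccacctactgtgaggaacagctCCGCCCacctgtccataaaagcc
Col8a2: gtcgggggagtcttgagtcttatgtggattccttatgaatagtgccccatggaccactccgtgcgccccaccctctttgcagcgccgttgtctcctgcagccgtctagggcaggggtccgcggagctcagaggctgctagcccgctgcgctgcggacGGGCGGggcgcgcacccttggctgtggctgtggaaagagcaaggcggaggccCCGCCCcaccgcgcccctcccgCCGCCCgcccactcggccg
Col7a1: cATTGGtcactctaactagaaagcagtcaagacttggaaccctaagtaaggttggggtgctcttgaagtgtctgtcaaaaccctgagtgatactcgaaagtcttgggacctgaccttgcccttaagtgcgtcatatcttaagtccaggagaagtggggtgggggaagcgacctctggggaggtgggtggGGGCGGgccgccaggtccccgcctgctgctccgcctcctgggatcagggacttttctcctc
RefSeq windows were at hand for 35 of the 44 members, 22 of them among the members tested below. The GC box GGGCGG stood in 68.2% of those 22 windows and in 60.5% of the windows of all 9611 tested genes that had one. CCAAT stood in 40.9% against 36.7%, GGAATG in 9.09% against 10.6%, and TGANTCA in 1 window, that of Col6a1 (4.55%), against 4.21%. TATAAA was found in 1 window of the 22, that of Col3a1 (4.55%), against 6.24%. Col8a1 and Col8a2, which responded so differently, held 4 and 3 copies of GGGCGG and none of the other motifs. These matches describe letters in a short window and do not show binding of any factor.

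Under Fgf8b most measured collagen genes fell in both cultures. Of the 44 members, 28 passed the filter of at least 0.5 RPKM in at least 4 libraries and were tested with limma on log2(RPKM + 0.5) together with all 13717 genes that passed. In white cultures 25 of the 28 were lower with Fgf8b at an adjusted p under 0.05, against 30.7% of all genes tested, 1 was higher (38.7% of all genes) and 2 were not called. In brown cultures 26 were lower (35.3% of all genes), 1 was higher (39.6%) and 1 was not called. A fall of at least 1 log2 unit was called for 17 members in white, against 5.72% of all genes, and for 20 in brown, against 7.03%. The median log2 change of the tested members was -1.26 in white and -1.34 in brown cultures, beside 0.04 and 0.03 over all genes tested. A gene that passed the filter through its control libraries alone had to be lower with Fgf8b. Among members over 0.5 RPKM in all 8 libraries compared, 20 of 22 were called lower in white and 22 of 23 in brown cultures. Of all genes under that same limit, 3618 of 12311 were called lower in white and 4097 of 12191 in brown cultures. The Fgf8b libraries lay wholly below the controls, with no overlap, for 25 members in white (29.6% of all genes) and 26 in brown (30.5%).

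The summed RPKM of the 44 genes went from 1.81% ± 0.0383 of the RPKM over all genes in white controls to 0.554% ± 0.0082 with Fgf8b, and from 1.54% ± 0.0665 to 0.360% ± 0.0150 in brown cultures. Col1a1, Col1a2 and Col3a1 made up 70.9% of the collagen sum in white and 60.9% in brown controls, and 65.6% and 51.6% with Fgf8b. The fibrillar class summed to 4823 ± 101 RPKM in white controls and 1472 ± 23.7 with Fgf8b, the network class to 360.5 ± 4.68 and 166.9 ± 4.14. In brown cultures the fibrillar sum was 3619.6 ± 232 without and 791 ± 33.4 with Fgf8b, and the network sum 539 ± 16.9 and 239.7 ± 6.02. The summed pericyte and smooth muscle list, almost all of it Acta2, moved with these sums, to 184 to 204 RPKM in white and 259.9 to 306 in brown cultures with Fgf8b, and the endothelial list, in which Tek had the highest level in controls, to 2.40 to 2.97 and 1.505 to 1.89. Single markers went the other way: Rgs5 averaged 0.383 and 8.89 RPKM without and with Fgf8b in white and 0.793 and 2.62 in brown cultures, and Cdh5 1.13 and 1.92 and 0.571 and 0.844. Cspg4 averaged 6.10 and 5.60 in white and 13.2 and 10.5 in brown cultures. Their part in the collagen result was not tested. The preadipocyte and fibroblast list summed to 1611 to 1733 RPKM in white controls and 1666 to 1804 with Fgf8b, and to 1138 to 1224 and 955 to 974 in brown cultures. Its members went both ways. Thy1 averaged 269 and 746 RPKM without and with Fgf8b in white and 294 and 555 in brown cultures, while Ly6a averaged 941 and 392 in white and 573 and 144 in brown, and Pdgfrb 129 and 46.2 and 140.5 and 70.3. Dcn averaged 168 and 355 in white but 78.0 and 74.5 in brown cultures. In bulk RNA, fewer collagen-making cells and less collagen RNA per cell cannot be told apart.

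**Figure D1:**
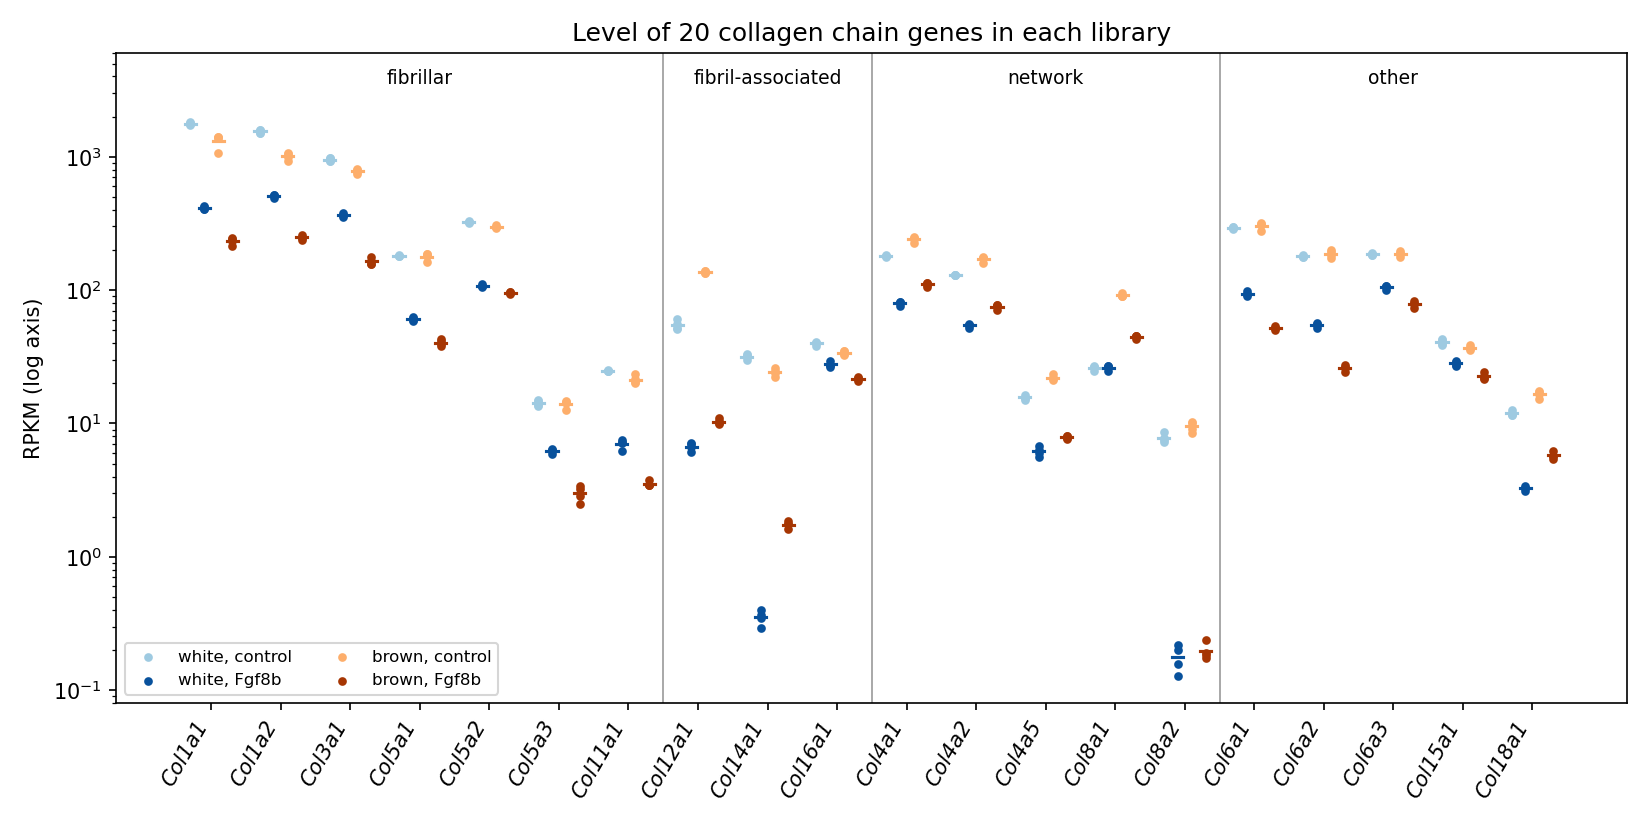
RPKM (log axis) of 20 collagen genes picked by level or size of change, ordered by class. Each point is 1 library, each short line the mean of 4, and colours mark depot and treatment. Col7a1, the tested member that rose, is not drawn. The dark Fgf8b points lie below the pale control points of the same depot for every gene drawn except Col8a1 in white cultures, where both groups averaged 26.2 RPKM.

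All 10 tested fibrillar genes fell in both cultures. Col1a1 and Col1a2 code for the chains of type I collagen, the main protein of connective tissue fibrils. Col1a1 stood at 1809, 1736, 1797 and 1762 RPKM in the white controls and at 428, 418, 406 and 408 with Fgf8b. In brown cultures it read 1373, 1414, 1396 and 1071 without and 242, 233, 247 and 214 with the factor. Every treated library was far below every control, and the lowest brown control value belonged to library 15. The log2 change was -2.10 (SE 0.067, adjusted p 6.25e-15) in white and -2.48 (SE 0.067, adjusted p 4.83e-16) in brown cultures, and without brown control 15 the latter was -2.57. Col1a2 stood at 1587, 1508, 1579.6 and 1514 RPKM in white controls and 515, 514, 510.3 and 493 with Fgf8b. The brown values were 1003, 1065, 1046 and 936 for controls and 250.2, 246, 260.2 and 239 for treated libraries. Again the groups were far apart, with white above brown in both states. Its log2 change was -1.61 (SE 0.037, adjusted p 9.26e-17) in white and -2.02 (SE 0.037, adjusted p 3.03e-18) in brown cultures. Col3a1, the single chain of type III collagen, which is laid down with type I in pliable tissues, gave 979, 934, 975 and 922 RPKM in white controls and 355, 377, 364 and 365 with Fgf8b. Brown controls gave 738, 789, 806 and 775 and treated brown libraries 164, 157, 178 and 157. The treated brown libraries were the lowest of all 16, below the treated white ones. The log2 change was -1.38 (SE 0.038, adjusted p 1.01e-15) in white and -2.24 (SE 0.038, adjusted p 1.01e-18) in brown cultures.

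Type V and type XI chains build the core that fibrils grow on. Col5a1 read 179, 179, 179 and 184 RPKM in white controls, 62.9, 61.9, 59.3 and 58.6 in treated white libraries. Its brown levels were 181, 186, 185 and 162 in controls and 41.2, 39.6, 42.7 and 37.9 with Fgf8b. White and brown controls overlapped, and the treated brown libraries were below the treated white ones. The log2 change of Col5a1 was -1.56 (SE 0.043, adjusted p 9.57e-16) in white and -2.13 (SE 0.043, adjusted p 1.05e-17) in brown cultures. Col5a2, its partner chain, read 319.7, 326, 329 and 323 RPKM in white controls and 107, 111, 108 and 106 after treatment. In brown cultures the values were 294, 297, 299 and 305 and 93.8, 96.99, 95.3 and 96.4. The groups were tight and the fall of close size, -1.58 (SE 0.024, adjusted p 3.12e-19) in white and -1.64 (SE 0.024, adjusted p 1.46e-19) in brown cultures on the log2 scale. Col5a3, another type V chain with a narrower distribution, was at 14.97, 13.5, 14.7 and 13.7 RPKM in white controls and 6.24, 6.46, 6.32 and 5.89 with Fgf8b. Brown libraries gave 14.8, 14.1, 14.5 and 12.6 and 3.24, 2.497, 3.40 and 2.84. Controls of the depots overlapped while treated libraries did not, brown lying lower. Its log2 change was -1.13 (SE 0.072, adjusted p 1.39e-10) in white and -2.06 (SE 0.072, adjusted p 2.05e-14) in brown cultures. Col11a1, a chain of type XI, was at 24.9, 25.02, 24.8 and 24.7 RPKM in white controls and 7.54, 7.25, 7.18 and 6.18 with Fgf8b. Brown controls had 19.98, 21.5, 20.5 and 23.3 and treated brown libraries 3.46, 3.45, 3.79 and 3.48. Treated brown libraries were the lowest, and the log2 change was -1.75 (SE 0.056, adjusted p 7.14e-15) in white and -2.43 (SE 0.056, adjusted p 5.7e-17) in brown cultures.

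The remaining fibrillar genes were weakly expressed. Col27a1, known from cartilage, went from a mean of 2.45 ± 0.178 to 0.622 ± 0.0628 RPKM in white and from 1.56 ± 0.0166 to 0.401 ± 0.0736 in brown cultures, log2 changes of -1.40 and -1.20. Col2a1, the main fibrillar chain of cartilage, was at 0.245 ± 0.0625 RPKM in white and 1.35 ± 0.129 in brown controls, and at 0.111 ± 0.0329 and 0.754 ± 0.0457 with Fgf8b. Its fall was called in both (adjusted p 0.0064 and 1.08e-05), though in white cultures it was under the filter level in every library. Of the cartilage markers, Acan was under 0.02 RPKM in every library, Comp averaged 2.74 and 0.0633 without and with Fgf8b in white and 2.87 and 0.109 in brown cultures, and Sox9 averaged 9.34 and 11.97 in white and 11.1 and 24.5 in brown cultures. The whole cartilage list summed to 11.7 to 12.8 RPKM in white controls, 12.1 to 12.7 with Fgf8b, 13.4 to 14.5 in brown controls and 23.8 to 25.6 with Fgf8b. Their part in the Col2a1 level was not tested. Col24a1 went from 0.950 ± 0.115 to 0.693 ± 0.120 RPKM in white, where the call (log2 -0.28 (SE 0.091, adjusted p 0.0105)) was lost when all transcript entries of the gene were summed (adjusted p 0.202), and from 0.579 ± 0.0268 to 0.0858 ± 0.0412 in brown cultures (log2 -0.88). Col11a2, the other type XI chain, did not pass the filter and had 16 to 25 reads per white control library, 4 to 15 with Fgf8b, and 8 to 15 and 4 to 9 in brown cultures.

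Among fibril-associated chains very large falls stood beside a small one. Col14a1 and Col12a1 both code for chains that coat type I fibrils. Col14a1 read 33.1, 31.3, 32.4 and 29.7 RPKM in white controls and 0.294, 0.398, 0.347 and 0.365 with Fgf8b, the latter resting on 33 to 49 reads per library. Brown controls gave 22.1, 24.9, 24.1 and 26.02 and treated brown libraries 1.84, 1.75, 1.61 and 1.75. White cultures had the higher controls and by far the lower treated values, so the order of the depots turned over. The log2 change was -5.24 (SE 0.057, adjusted p 2.52e-21) in white and -3.47 (SE 0.057, adjusted p 6.03e-19) in brown cultures, a ratio of control to treated means of 90.2 and 13.95. Col12a1 was at 51.2, 55.4, 51.8 and 60.3 RPKM in white controls and 6.96, 7.09, 6.08 and 6.67 with Fgf8b. In brown cultures it was at 134, 138, 135 and 139.7 and 10.02, 10.99, 9.90 and 10.4. Brown controls were the highest libraries and brown stayed above white after treatment. Its log2 change was -2.94 (SE 0.053, adjusted p 2.89e-18) in white and -3.66 (SE 0.053, adjusted p 1.06e-19) in brown cultures. Col16a1, a fibril-associated chain found near cell surfaces, was at 40.1, 39.9, 40.9 and 38.4 RPKM in white controls and 27.7, 29.2, 27.5 and 26.4 with Fgf8b. The brown values were 33.02, 35.1, 34.7 and 32.8 and 21.6, 22.4, 22.1 and 20.6. The groups did not overlap within a depot, but the fall was smaller, -0.52 (SE 0.038, adjusted p 8.89e-10) in white and -0.64 (SE 0.038, adjusted p 3.79e-11) in brown cultures on the log2 scale.

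Col9a3, a type IX chain of cartilage fibrils, averaged 0.696 ± 0.0571 RPKM in white controls and 0.590 ± 0.120 with Fgf8b, log2 -0.14 (SE 0.12, adjusted p 0.311), and 0.771 ± 0.159 and 0.378 ± 0.132 in brown cultures, log2 -0.54 (SE 0.12, adjusted p 0.000577). With all entries of the gene summed, the white fall was called too, at -0.67 (adjusted p 0.0065). Its partner chains did not pass the filter: Col9a2 had 3 to 9 reads per white control and 0 to 2 with Fgf8b, and Col9a1 had 0 reads in all 16 libraries together, whose depth of about 266800000 reads allows up to 3 reads. Col19a1, Col20a1 and Col22a1 also stayed under the filter, at no more than 9, 15 and 2 reads in any library for the entries used. For Col20a1, 2 other transcript entries stood higher, averaging 2.31 and 2.80 RPKM over all libraries. With Fgf8b these entries changed by -0.40 and -0.48 in white and -0.11 and -0.08 in brown cultures on the log2 scale, and were not tested.

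Network collagens moved unevenly. Col4a1 and Col4a2 code for the chains of the common type IV collagen of basement membranes. Col4a1 was at 180.3, 185, 176 and 180.2 RPKM in white controls and 75.5, 81.7, 81.1 and 79.5 with Fgf8b. Brown controls read 244, 252, 243 and 227 and treated brown libraries 109.5, 113, 113 and 106. Brown was above white in both states and no groups overlapped. limma gave a log2 change of -1.18 (SE 0.035, adjusted p 2.53e-15) in white and -1.12 (SE 0.035, adjusted p 3.93e-15) in brown cultures. Col4a2 was at 129.8, 131, 129 and 129 RPKM in white controls and 51.6, 55.2, 55.1 and 55.9 with Fgf8b. Brown libraries gave 174, 178, 175 and 159 without and 75.4, 77.2, 76.9 and 71.5 with it. The order of the groups was that of Col4a1. Its log2 change was -1.25 (SE 0.037, adjusted p 2.68e-15) in white and -1.18 (SE 0.037, adjusted p 4.68e-15) in brown cultures. Col4a5, a chain of the type IV networks of kidney and other tissues, was at 15.1, 16.4, 15.6 and 15.5 RPKM in white controls and 6.80, 6.31, 6.02 and 5.59 after treatment. Its brown values were 21.2, 21.8, 21.97 and 23.3 and 7.84, 7.58, 8.01 and 7.99. Brown again lay above white in each state, with log2 changes of -1.28 (SE 0.050, adjusted p 1.28e-13) and -1.43 (SE 0.050, adjusted p 1.92e-14) in white and brown cultures. Col4a6, its partner, averaged 0.603 ± 0.0783 and 0.410 ± 0.0793 RPKM in white and 1.86 ± 0.136 and 1.09 ± 0.0916 in brown cultures, log2 changes of -0.28 and -0.57.

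The chains of type VIII collagen, a short network collagen known from vessel walls and the cornea, parted ways. Col8a1 read 24.7, 26.7, 26.4 and 26.99 RPKM in white controls and 26.7, 26.9, 26.3 and 24.7 with Fgf8b. In brown cultures it read 90.7, 91.1, 90.96 and 95.1 and 42.8, 44.9, 45.6 and 45.2. White controls and treated white libraries overlapped, whereas every treated brown library was below every brown control. Its log2 change came to -0.002 (SE 0.036, adjusted p 0.962) in white and -1.03 (SE 0.036, adjusted p 1.92e-14) in brown cultures. Col8a2 read 7.29, 7.77, 8.58 and 7.53 RPKM in white controls and 0.199, 0.157, 0.218 and 0.129 with Fgf8b. Brown controls gave 8.54, 10.3, 10.1 and 9.16 and treated brown libraries 0.173, 0.184, 0.190 and 0.236. Treated libraries of both depots lay in the same low range. On the log2 scale the change was -3.62 (SE 0.074, adjusted p 1.65e-17) in white and -3.85 (SE 0.074, adjusted p 4.65e-18) in brown cultures, which the added 0.5 RPKM understates: the ratio of control to treated means was 44.4 and 48.7. Col10a1, the collagen of hypertrophic cartilage, and Col4a3 and Col4a4, chains of the kidney network, did not pass the filter. Col10a1 had 8 to 14 reads per brown control and 1 to 7 with Fgf8b, and Col4a3 and Col4a4 had at most 12 and 16 reads in any library.

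Type VI collagen forms beaded filaments around cells and is abundant in fat tissue. Its 3 main chains fell in both cultures, and more in brown. Col6a1 was at 289, 295, 293 and 298 RPKM in white controls and 93.9, 99.1, 93.2 and 90.9 with Fgf8b. Brown controls had 308, 318, 313 and 279 and treated brown libraries 52.2, 51.7, 54.1 and 50.2. The controls of the depots overlapped, and after treatment brown was below white in every library. Its log2 change was -1.64 (SE 0.038, adjusted p 9.12e-17) in white and -2.53 (SE 0.038, adjusted p 1.87e-19) in brown cultures. Col6a2 was at 176, 183, 182 and 176 RPKM in white controls and 56.2, 56.5, 54.7 and 51.6 with Fgf8b. The brown libraries read 184, 199.7, 192 and 173 and 26.7, 25.9, 27.3 and 24.4. The order of the groups was that of Col6a1, with a wider gap after treatment. The fitted log2 change was -1.70 (SE 0.044, adjusted p 3.6e-16) in white and -2.82 (SE 0.044, adjusted p 3.31e-19) in brown cultures. Col6a3, the long chain whose cleaved end is known as endotrophin, was at 188, 184, 183 and 186 RPKM in white controls and 101, 107, 105 and 107 with Fgf8b. Its brown values were 188, 196, 190.4 and 177 and 80.4, 78.5, 82.6 and 73.2. It kept more of its level than its partners, with log2 changes of -0.82 (SE 0.038, adjusted p 1.48e-12) in white and -1.25 (SE 0.038, adjusted p 2.62e-15) in brown cultures. Col6a6, a chain that can replace Col6a3, averaged 0.987 ± 0.164 RPKM in white controls and 0.382 ± 0.0386 with Fgf8b, log2 -0.75 (SE 0.093, adjusted p 1.15e-06), and 0.212 ± 0.0608 and 0.168 ± 0.0209 in brown cultures, log2 -0.09 (SE 0.093, adjusted p 0.397). With its entries summed the brown fall was called, at -0.50 (adjusted p 0.0101). Col6a5 and Col6a4, of the same branch, did not pass the filter. Col6a5 had 42 to 68 reads per white control and 7 to 11 with Fgf8b, and 21 to 31 and 4 to 7 reads in brown cultures. Col6a4 had 8 to 26 and 4 to 5 reads in white cultures.

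Col15a1 and Col18a1 are multiplexins of the basement membrane zone, and the end of the Col18a1 protein is cleaved off as endostatin. Col15a1 was at 42.2, 39.8, 42.7 and 38.6 RPKM in white controls and 27.2, 29.6, 29.04 and 27.1 with Fgf8b. Brown controls had 35.3, 38.99, 37.04 and 37.03 and treated brown libraries 21.7, 21.8, 24.1 and 22.7. The fall was small but without overlap within a depot, -0.52 (SE 0.045, adjusted p 9e-09) in white and -0.70 (SE 0.045, adjusted p 1.08e-10) in brown cultures on the log2 scale. Col18a1 was at 12.6, 11.6, 11.9 and 11.5 RPKM in white controls and 3.28, 3.27, 3.40 and 3.12 with Fgf8b. Brown values were 16.6, 17.1, 17.5 and 15.3 and 5.72, 5.71, 6.18 and 5.44. Brown lay above white in both states. For Col18a1 the log2 change was -1.72 (SE 0.049, adjusted p 1.52e-15) in white and -1.45 (SE 0.049, adjusted p 1.42e-14) in brown cultures.

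Col7a1, the anchoring fibril collagen that ties epithelia to the tissue below, was the tested member that rose in both cultures. It was at 0.848, 0.830, 0.751 and 0.774 RPKM in white controls and 1.63, 1.86, 1.80 and 1.82 with Fgf8b. Brown controls had 0.902, 0.861, 0.927 and 0.738 and treated brown libraries 1.85, 1.41, 1.92 and 1.74. Every treated library exceeded every control, at a low level. Tested on the log2 scale, it changed by 0.81 (SE 0.080, adjusted p 6.16e-08) in white and 0.71 (SE 0.080, adjusted p 2.61e-07) in brown cultures. The epithelial list also stood higher with Fgf8b, summing to 0.152 to 0.267 RPKM in white controls and 1.19 to 1.42 after treatment. Most of the treated sum was Krt18, at a mean of 1.08 RPKM, and Krt14 was at 0 in all 16 libraries. Cdh1 went the other way, averaging 0.0455 and 0.00325 RPKM without and with Fgf8b in white and 0.0685 and 0.0151 in brown cultures. The part of this list in the Col7a1 level was not tested. Col28a1, a beaded collagen known from peripheral nerve, averaged 1.84 ± 0.114 and 1.35 ± 0.174 RPKM without and with Fgf8b in white cultures, log2 -0.34 (SE 0.079, adjusted p 0.000889), a call lost when entries were summed (adjusted p 0.0579). In brown cultures it averaged 4.57 ± 0.267 and 1.74 ± 0.178 RPKM, log2 -1.18 (SE 0.079, adjusted p 2.04e-10). The summed Schwann cell list, most of it S100b in controls, moved the same way, at 5.83 to 7.13 RPKM in white controls and 11.1 to 14.2 in brown controls, and at 1.77 to 2.63 and 3.12 to 4.37 with Fgf8b. S100b averaged 5.69 and 1.67 RPKM without and with Fgf8b in white and 8.40 and 1.29 in brown cultures, and Sox10 0.0265 and 0.0151 in white and 1.23 and 0.929 in brown cultures. Its part was not tested. The transmembrane collagens did not pass the filter. Col23a1 had 39 to 43 reads per white control and 10 to 16 with Fgf8b, and 35 to 49 and 20 to 27 reads in brown cultures. Col17a1 had 3 to 9 and 7 to 12 reads in white cultures, Col25a1 0 to 1 and 3 to 7, and Col13a1 was at no more than 0.019 RPKM in any library. Col26a1, of the remaining collagens, also stayed under the filter, with at most 1 read in any library. Of the 16 members under the filter, 13 had a lower mean with Fgf8b in white cultures and 13 in brown cultures. The same share over all genes under the filter was not counted, and several of these means rest on few reads. These 16 members were not tested.

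Whether the cultures responded alike was tested as the difference of the log2 changes, brown minus white. The response differed for 17 of the 28 tested members, against 39.5% of all genes: it was lower (a stronger fall) in brown for 14, against 19.7%, and higher for 3, against 19.8%. The median difference over the members was -0.33, beside -0.0038 over all genes tested. Among the 20 members at 0.5 RPKM or more in all 16 libraries, 13 were called lower and 1 higher. Of all 11988 such genes, 2347 were lower and 2516 higher. Among fibrillar genes a stronger fall in brown was called for 7 of 10. Col27a1 had the larger fall in white, a difference of 0.20 (SE 0.11, adjusted p 0.152) that was called with an added value of 1 RPKM (0.22, adjusted p 0.0347). With 0.5 RPKM added, the largest differences toward a stronger fall in brown were those of Col6a2, -1.11 (SE 0.062, adjusted p 5.66e-10), Col8a1, -1.03 (SE 0.051, adjusted p 1.09e-10), Col5a3, -0.93 (SE 0.10, adjusted p 1.59e-06), Col6a1, -0.90 (SE 0.054, adjusted p 1.23e-09), and Col3a1, -0.86 (SE 0.054, adjusted p 2.26e-09). The low gene Col24a1 differed by -0.60 (SE 0.13, adjusted p 0.00126), and by -1.49 with an added value of 0.1 RPKM, past Col6a2. Col14a1 went the other way by 1.77 (SE 0.081, adjusted p 6.76e-11), as did Col6a6 by 0.66 (SE 0.13, adjusted p 0.000683) and Col18a1 by 0.27 (SE 0.070, adjusted p 0.00489). Col6a6 was under 0.5 RPKM in every brown library, so it had little room to fall there. Col14a1 was under 0.5 RPKM in every treated white library. Type I chains differed less, Col1a1 by -0.38 (SE 0.094, adjusted p 0.00363) and Col1a2 by -0.42 (SE 0.053, adjusted p 8.37e-06). No difference was called for the basement membrane chains Col4a1, 0.05 (SE 0.049, adjusted p 0.418), and Col4a2, 0.06 (SE 0.053, adjusted p 0.354), nor for Col5a2, -0.06 (SE 0.034, adjusted p 0.188). With upper-quartile scaling the response was called stronger in brown for 19 members, Col5a2 among them (-0.10, adjusted p 0.0287). That scaling also moved the median difference over all genes, from -0.0038 to -0.039. The share of all genes called under it is not given here. The Col15a1 difference of -0.18 (SE 0.064, adjusted p 0.0311) lost its call (adjusted p 0.0621 to 0.0704) without any 1 of white control 3 or 7, white Fgf8b 4 or 6, brown control 11 or brown Fgf8b 10 or 12. Leaving out 1 library brought a call of a stronger fall in brown for 6 more members, at adjusted p 0.0232 to 0.0490: Col2a1 without white control 7, Col4a6 without white Fgf8b 6, Col4a5 without white Fgf8b 8, Col8a2 without brown control 9, Col16a1 without brown control 15, and Col9a3 without white Fgf8b 8, brown control 11 or brown Fgf8b 14. The FGF response genes themselves differed by depot, Dusp6 by 0.72 (SE 0.11, adjusted p 5.65e-05) and Spry4 by 1.005 (SE 0.090, adjusted p 1.52e-07), with the larger rise in brown cultures.

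**Figure D2:**
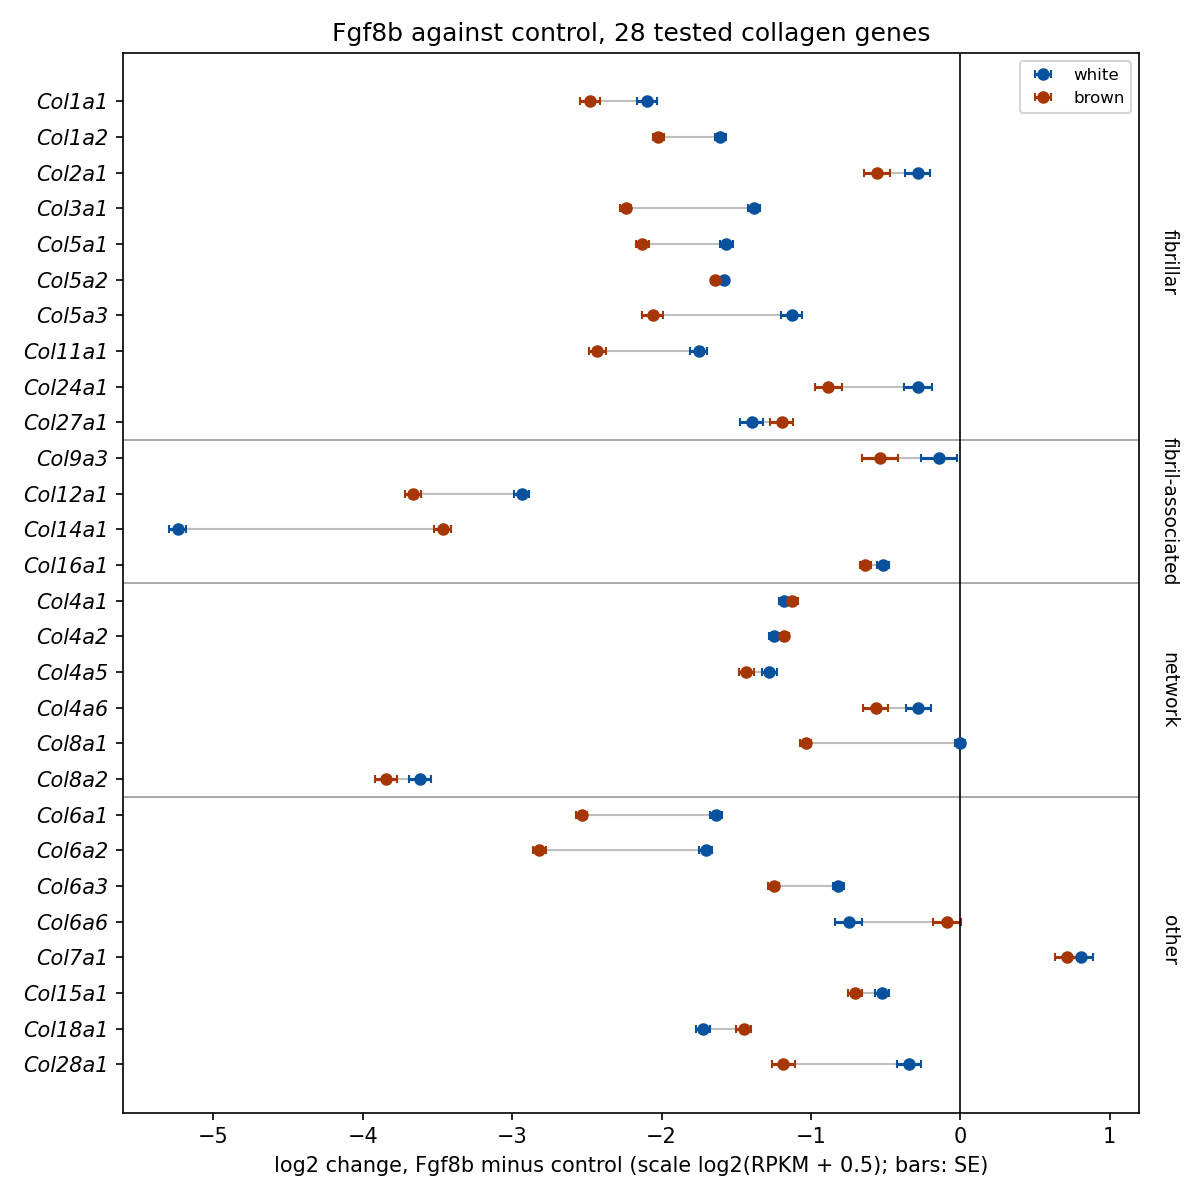
Log2 change with Fgf8b in white (blue) and brown (red) cultures for the 28 tested collagen genes, with standard errors; a grey line joins both values of a gene. Points lie left of 0 for nearly all genes, Col7a1 lies right of it, and the widest gap is that of Col14a1, at -5.24 in white and -3.47 in brown cultures.

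Brown and white controls differed for 21 of the 28 tested members, against 37.5% of all genes. Depot runs with library number (white 1 to 8, brown 9 to 16), so it cannot be told apart from any order of handling that those numbers reflect. Of the 28, 10 were higher in brown (19.7% of all genes) and 11 lower (17.8%). All 6 tested network genes were among the 10, and 7 of 10 fibrillar genes among the 11. A gene that passed the filter in 1 depot alone had to be higher there. Col2a1 was under 0.5 RPKM in all white controls, and Col6a6 in all brown ones. Among the 25 members at 0.5 RPKM or more in every control library, 8 were higher in brown and 10 lower. Of all 12604 such genes, 2508 were higher and 2292 lower. On the scale with 0.5 RPKM added Col8a1 showed the largest difference, 1.79 (SE 0.036, adjusted p 1.86e-16), followed by Col12a1, 1.32 (SE 0.053, adjusted p 1.71e-12), Col2a1, 1.31 (SE 0.085, adjusted p 9.76e-10), Col28a1, 1.12 (SE 0.079, adjusted p 3.35e-09), and Col4a6, 1.10 (SE 0.085, adjusted p 1.05e-08). That order depends on the added value, since the ratio of means between the depots was 5.503 for the low gene Col2a1 and 3.51 for Col8a1. Col4a1 was higher in brown controls by 0.42 (SE 0.035, adjusted p 2.9e-08) and Col4a2 by 0.40 (SE 0.037, adjusted p 1.27e-07). The pericyte and smooth muscle list was higher in brown controls as well, and its part was not tested. That of Col15a1, -0.14 (SE 0.045, adjusted p 0.0244), lost its call without white control 1 (adjusted p 0.0756), white control 5 (0.0816) or brown control 9 (0.0767). The Col8a2 difference, 0.27 (SE 0.074, adjusted p 0.00753), lost its call with an added value of 0.1 RPKM (adjusted p 0.0582) and with entries summed (0.0739). White controls were higher for Col6a6, -1.06 (SE 0.093, adjusted p 5.88e-08) with a ratio of means of 4.66, Col1a2, -0.61 (SE 0.037, adjusted p 4.94e-10), Col1a1, -0.44 (SE 0.067, adjusted p 4.01e-05), and Col3a1, -0.29 (SE 0.038, adjusted p 8.74e-06). Col1a1 was still lower in brown without brown control 15, at -0.35. For Col6a1 leaving out that library brought a call, at 0.09 (adjusted p 0.023), where with it the value was 0.05 (SE 0.038, adjusted p 0.345).

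With Fgf8b in both, 26 of the 28 differed by depot, against 55.5% of all genes, 10 higher in brown (29.3%) and 16 lower (26.3%). Among the 20 members at 0.5 RPKM or more in every treated library, 7 were higher in brown and 12 lower. Of all 12249 such genes, 3739 were higher and 3223 lower. Fibrillar genes stood further apart: 9 of 10 were lower in treated brown than in treated white libraries, Col3a1 by -1.15 (SE 0.038, adjusted p 1.21e-13) and Col1a2 by -1.03 (SE 0.037, adjusted p 3.72e-13). The type VI chains Col6a1, Col6a2 and Col6a3, close between the controls, were now lower in brown, Col6a2 by -1.06 (SE 0.044, adjusted p 2.33e-12), Col6a1 by -0.85 (SE 0.038, adjusted p 5.67e-12) and Col6a3 by -0.41 (SE 0.038, adjusted p 6.07e-08). Col6a6 was lower in brown in both states, by -0.40 (adjusted p 0.0014) with Fgf8b. Col14a1 was lower in brown among controls, -0.38 (SE 0.057, adjusted p 4.69e-05), and higher among treated libraries, 1.40 (SE 0.057, adjusted p 1.81e-12). Col8a1 remained higher in brown, at 0.76 (SE 0.036, adjusted p 1.17e-11). Col9a3 was called at -0.32 (SE 0.12, adjusted p 0.0319), a call lost with only the treated groups fitted (adjusted p 0.0519), with entries summed (0.337) and without white Fgf8b library 4 or 6 or brown Fgf8b library 12 (0.0823, 0.0997 and 0.132). The call for Col28a1, 0.27 (SE 0.079, adjusted p 0.00699), was also lost with entries summed (0.0717).

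**Figure D3:**
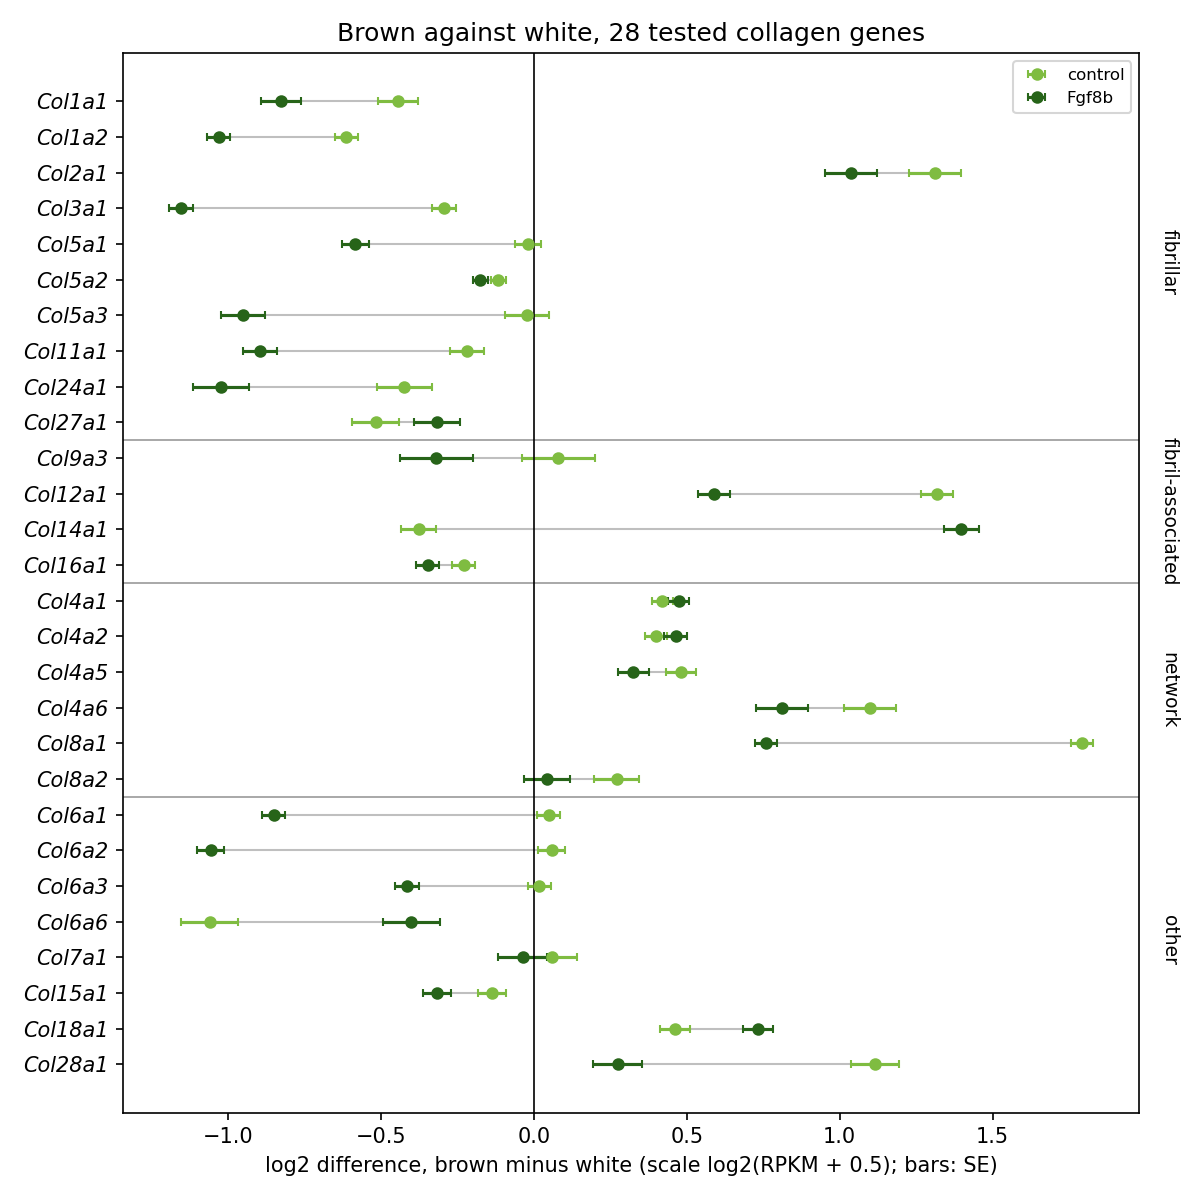
Log2 difference between brown and white libraries, brown minus white, among controls (pale green) and among Fgf8b libraries (dark green) for the 28 tested collagen genes, with standard errors. Network genes lie right of 0, Col8a1 farthest at 1.79 among controls, most fibrillar genes lie left of it, and Col14a1 crosses from -0.38 to 1.40.

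The balance between chains of a type, given as a ratio of RPKM within a library, held for some types and shifted for others. These ratios are descriptions with no test. Type IV shifted little, though without overlap within a depot: Col4a1 to Col4a2 was 1.39 ± 0.0172 in white controls and 1.46 ± 0.0265 with Fgf8b, and 1.41 ± 0.0170 and 1.47 ± 0.0145 in brown cultures. In the RefSeq annotation (GRCm38.p6) both genes start from 1 short stretch of chromosome 8, head to head on opposite strands with starts 21 bases apart. Type I chains moved from a Col1a1 to Col1a2 ratio of 1.15 ± 0.0121 to 0.817 ± 0.0163 in white and from 1.29 ± 0.101 to 0.941 ± 0.0291 in brown cultures, with no overlap within a depot. Brown control 15 gave the lowest brown control ratio, 1.14, and the highest was 1.37. Col3a1 to Col1a1 was 0.536 ± 0.00898 in white controls and 0.881 ± 0.0335 with Fgf8b. In brown cultures it was 0.599 ± 0.0844 and 0.702 ± 0.0288, and the groups overlapped with brown control 15 at 0.723. Col6a1 to Col6a2 was 1.64 ± 0.0357 and 1.72 ± 0.0424 in white and 1.63 ± 0.0356 and 1.998 ± 0.0404 in brown cultures, so only treated brown libraries stood clear of the rest. Col5a1 to Col5a2 was 0.556 ± 0.0116 and 0.562 ± 0.0176 in white cultures, which overlapped, and 0.597 ± 0.0445 and 0.422 ± 0.0260 in brown cultures, which did not. Type VIII had the largest shift of these 6, from a Col8a1 to Col8a2 ratio of 3.37 ± 0.212 to 155 ± 32.8 in white and from 9.72 ± 0.917 to 231 ± 26.3 in brown cultures.

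**Figure D4:**
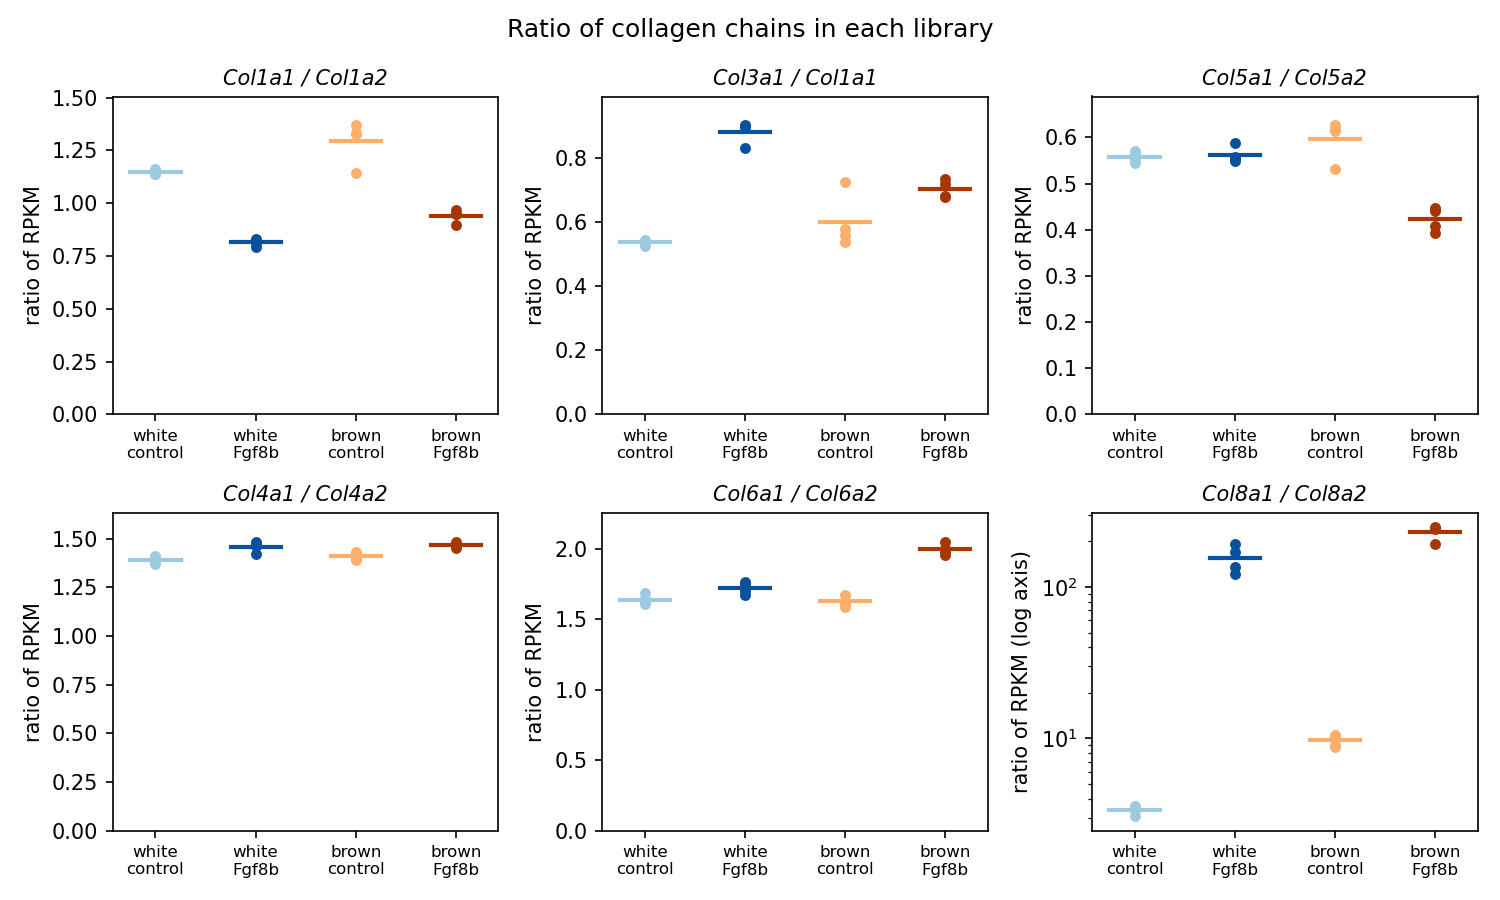
Ratio of RPKM between 6 pairs of collagen chains in each library (points) with the mean of each group (lines); the Col8a1 to Col8a2 panel has a log axis and the others start at 0. Col4a1 to Col4a2 lies between 1.37 and 1.49 in all 16 libraries, and Col8a1 to Col8a2 runs from 3.08 to 10.6 in controls and from 121 to 247 with Fgf8b.

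Of the collagen genes, 8 pairs are direct neighbours among protein-coding genes in that annotation, and both genes passed the filter in 4 pairs. Their log2 changes are given side by side as descriptions. Col4a1 and Col4a2 changed by -1.18 and -1.25 in white and -1.12 and -1.18 in brown cultures. Col6a2 and Col6a1 changed by -1.70 and -1.64 in white and -2.82 and -2.53 in brown cultures. Col3a1 and Col5a2 were close in white, at -1.38 and -1.58, but not in brown cultures, at -2.24 and -1.64. Col4a6 and Col4a5, also head to head but with starts 1343 bases apart, changed by -0.28 and -1.28 in white and -0.57 and -1.43 in brown cultures.

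Genes that process, secrete, cross-link or bind collagen did not fall as a block. Of 56 listed genes 47 passed the filter. In white cultures 24 were lower and 18 higher with Fgf8b, against 30.7% and 38.7% of all genes, and in brown cultures 32 were lower and 11 higher, against 35.3% and 39.6%. Their median log2 change was -0.12 in white and -0.39 in brown cultures. Among the 10 enzymes and partners of proline hydroxylation, which stabilises the helix, 6 were lower and 2 higher in white, and 9 lower and 1 higher in brown cultures. P4ha3, a subunit of the collagen prolyl hydroxylase, averaged 21.4 ± 0.945 and 8.24 ± 0.932 RPKM in white and 31.4 ± 2.304 and 6.60 ± 0.724 in brown cultures, log2 -1.33 and -2.17. Of another kind of prolyl hydroxylase, Lepre1 (now P3h1) and Leprel2 (P3h3) changed less, by -0.27 and -0.39 in white and -0.71 and -0.75 in brown cultures. Leprel1 (P3h2), of that same kind, was low and fell further. It averaged 2.67 ± 0.132 and 0.266 ± 0.0802 RPKM in white and 3.10 ± 0.177 and 0.533 ± 0.0914 in brown cultures.

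Lysine hydroxylation prepares collagen for sugars and cross-links, and 4 of its 6 tested genes were lower in white and 5 in brown cultures. Of all genes tested, 30.7% were lower in white and 35.3% in brown cultures. Plod2, the lysyl hydroxylase that directs cross-links of the fibril ends, went in opposite directions: it read 41.9, 41.6, 44.2 and 42.9 RPKM in white controls and 49.3, 55.6, 53.5 and 52.9 with Fgf8b. Brown libraries read 129, 138, 137 and 155 without and 57.6, 57.8, 62.2 and 59.5 with it. No groups overlapped within a depot, treated white libraries being higher and treated brown ones lower than their controls. limma gave a log2 change of 0.30 (SE 0.049, adjusted p 2.28e-05) in white and -1.23 (SE 0.049, adjusted p 1.15e-13) in brown cultures, and the difference -1.53 (SE 0.069, adjusted p 5.83e-11). Fkbp10, a chaperone that works with it, changed by -0.20 and -0.62, and Plod1, the hydroxylase for the helix, by -0.24 and -0.52, in white and brown cultures. Of 11 tested genes for chaperones and export, 6 rose and 4 fell in white, and 4 rose and 6 fell in brown cultures. Over all genes tested 38.7% rose and 30.7% fell in white, and 39.6% rose and 35.3% fell in brown cultures. Serpinh1, the collagen chaperone of the endoplasmic reticulum, averaged 1236 ± 37.7 and 757 ± 16.9 RPKM in white and 1256 ± 63.7 and 643 ± 18.9 in brown cultures. Its log2 change was -0.71 (SE 0.035, adjusted p 4.28e-12) and -0.96 (SE 0.035, adjusted p 3.6e-14). Creb3l1, a transcription factor known to act on collagen genes, changed by -1.05 and -1.69, and Fkbp14, a folding enzyme of the endoplasmic reticulum, by -0.36 and -0.85.

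Propeptide cleavage frees procollagen to form fibrils, and its genes split 3 lower to 3 higher in white and 3 lower to 2 higher in brown cultures. Beside these small counts, 30.7% of all genes were lower and 38.7% higher in white, and 35.3% and 39.6% in brown cultures. Adamts2, the main cleaver of the front propeptide, averaged 102 ± 0.501 and 25.8 ± 1.43 RPKM in white and 92.1 ± 8.50 and 21.8 ± 1.37 in brown cultures. Adamts14, a related protease, ran the other way, at 4.32 ± 0.157 and 15.3 ± 0.370 RPKM in white and 3.64 ± 0.495 and 15.7 ± 0.924 in brown cultures. The log2 changes were -1.96 (SE 0.058, adjusted p 2.56e-15) and -2.05 (SE 0.058, adjusted p 1.14e-15) for Adamts2 and 1.71 (SE 0.067, adjusted p 1.45e-13) and 1.98 (SE 0.067, adjusted p 1.45e-14) for Adamts14. Pcolce, the enhancer of the cleavage at the other end, fell in both, log2 -1.18 and -1.06. Of the 7 cross-linking genes, 2 were lower and 4 higher in white and 4 lower and 3 higher in brown cultures, beside the same shares over all genes. No list was tested as a set. Lox, lysyl oxidase, read 685, 651, 699.5 and 666 RPKM in white controls and 145, 145, 143 and 138 with Fgf8b, and 581, 604, 590.3 and 676 and 122, 131, 133 and 134 in brown cultures. Treated libraries were far below controls in both depots, with log2 changes of -2.24 (SE 0.043, adjusted p 7.76e-18) and -2.24 (SE 0.043, adjusted p 5.09e-18). Loxl3, a relative, rose from 47.99 ± 1.73 to 146 ± 5.45 RPKM in white and from 51.00 ± 4.21 to 108 ± 2.59 in brown cultures, log2 1.60 and 1.08. Loxl4, another relative, rose in white and fell in brown cultures, log2 0.55 (SE 0.055, adjusted p 6.15e-08) and -0.43 (SE 0.055, adjusted p 1.16e-06), a difference of -0.98 (SE 0.077, adjusted p 3.31e-08). Among collagen receptors 5 of 7 were lower in white and 5 in brown cultures, against 30.7% and 35.3% of all genes. Itga11, the integrin chain by which fibroblasts hold type I collagen, read 20.5, 20.7, 20.5 and 20.6 RPKM in white controls and 0.488, 0.552, 0.403 and 0.376 with Fgf8b. Its brown values were 20.4, 21.3, 21.9 and 19.4 and 0.392, 0.457, 0.444 and 0.290. Treated libraries of both depots shared 1 low range, with log2 changes of -4.47 (SE 0.069, adjusted p 3.79e-19) and -4.57 (SE 0.069, adjusted p 2.05e-19). Ddr1, a receptor tyrosine kinase for collagen, changed by -0.54 and -0.88, and Mrc2, which takes up collagen fragments, by -0.55 and -0.39.

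**Figure D5:**
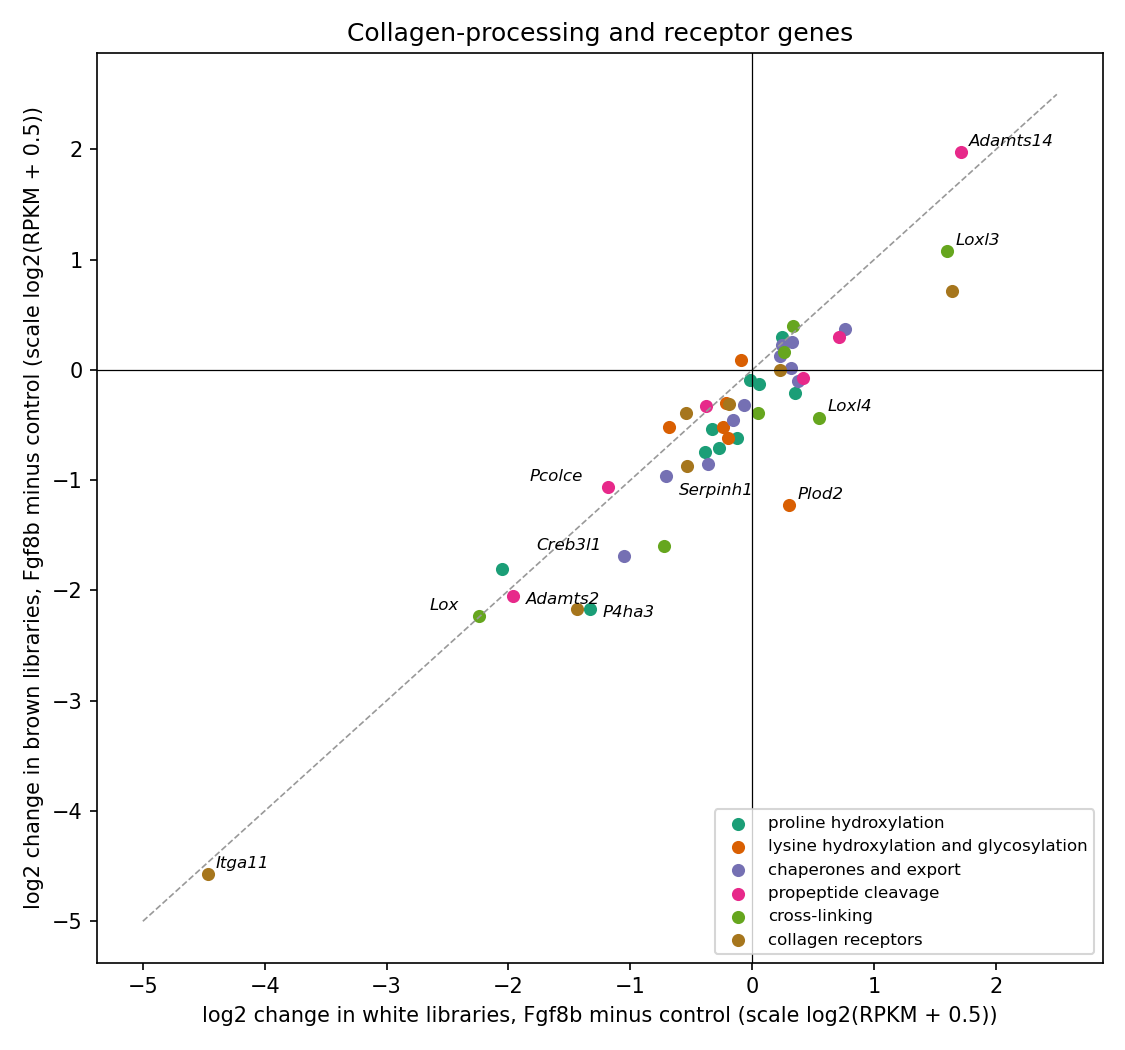
Log2 change with Fgf8b in white (horizontal) against brown cultures (vertical) for the 47 tested genes that process or bind collagen, coloured by list; the dashed line marks equal change. Lox lies on the line at -2.24 in both, Itga11 at the lower left, Adamts14 and Loxl3 at the upper right, and Plod2 and Loxl4 in the panel corner of higher white and lower brown values.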

How the data were processed

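RNA-seq of 16 mouse libraries (TruSeq RNA v2 from total RNA, per the labels' protocols) was deposited as 1 table of RPKM values per transcript entry, so the unit, RPKM, is that of the authors. CASAVA and bcl2fastq are named without versions in the submitters' processing notes; the choice of aligner, genome build, annotation, strandedness and handling of reads shared by gene copies is not given in the sources used here. Without strand, reads of overlapping antisense genes cannot be told apart. Decimal commas were read as points.

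Of 168326 entries, 23172 (13.8%) had no symbol and 808 had 1 of 299 repeated accessions; 144549 were used. Each gene was represented by its RefSeq entry, coding ones first and then the one with the highest mean. Of the 29060 genes 22445 had one, and for the others the entry with the highest mean was taken. All 44 collagen genes had a curated RefSeq entry, out of 316 entries. Depth and whole reads were recovered from the steps between low values (per library, 95.7% to 96.04% of values worth 50 reads or fewer came out whole, with a tolerance of 0.1); a count of 0 allows up to 3 reads, and such limits cover counting error only. Groups came from sample titles.

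Tests used limma 3.58.1 (R 4.3.3; robust, with trend) on log2(RPKM + 0.5) over all 16 libraries and the 13717 genes that reached 0.5 RPKM in 4 or more libraries, with Benjamini-Hochberg adjustment over all genes and a threshold of 0.05; a log2 change understates that of low genes. The limma fit was tried on simulated data with known changes. That covered the white Fgf8b comparison alone and genes averaging at least 1 RPKM in white controls, so it did not cover low genes. Tables and figures used Python 3.11.15 with pandas 2.3.3, numpy 2.4.6 and matplotlib 3.10.9. Alternatives were added values of 0.1 and 1 RPKM, no filter, a filter at 1 RPKM, median-of-ratios and upper-quartile scaling, sums over entries, only the groups compared, and leaving out each library. No count test was run on these values.

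Members described library by library had a group mean of at least 10 RPKM, or were among the 5 largest changes per Fgf8b comparison or the 3 largest differences of response with a mean of at least 1 RPKM. Col7a1, outside that rule, was described in the same way because it was the tested member that rose. In each processing list 3 genes were picked, those with the largest change and a mean of at least 5 RPKM. Symbols P3h1 to P3h4 and Colgalt1 were matched through RefSeq synonyms. One marker of the Schwann cell list is not reported here. Members, lists and markers were chosen with earlier results of these data known.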

Additional observations from a re-analysis of the deposited data

Results flagged for a closer look

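A library stood apart from the other 3 of its group in 4 of 80 groups checked, by Dixon's test at its 95% critical value; chance alone gives about 1 in 20. Brown control 15 was low for Col1a1 at 1071 RPKM (others 1373 to 1414) and high for Col8a1 at 95.1 (others 90.7 to 91.1). Brown Fgf8b library 14 was high for Col11a1 at 3.79 (others 3.45 to 3.48), and white control 7 was high for Col5a1 at 184 (others 179.1 to 179.3).

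The response to Fgf8b differed between brown and white cultures, by limma's interaction term, for 17 tested members, against 39.5% of all genes. The brown minus white values, in log2 units, were -1.11 for Col6a2, -1.03 for Col8a1, -0.93 for Col5a3, -0.90 for Col6a1, -0.86 for Col3a1, -0.84 for Col28a1 and -0.73 for Col12a1. Col11a1 followed at -0.68, Col24a1 at -0.60, Col5a1 at -0.57, Col6a3 at -0.43, Col1a2 at -0.42, Col1a1 at -0.38 and Col15a1 at -0.18. Positive differences, a weaker fall in brown cultures, were 0.27 for Col18a1, 0.66 for Col6a6 and 1.77 for Col14a1. Of these, Col6a6 was under 0.5 RPKM in every brown library.

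Of the 18 processing and receptor genes picked for a large Fgf8b change, 13 differed in the same test, against 39.5% of all genes. Over all 47 tested genes of these lists, 28 differed downward and 2 upward, against 19.7% and 19.8% of all genes. Among the 13, the differences were -1.53 for Plod2, -0.98 for Loxl4, -0.84 for P4ha3, -0.63 for Creb3l1, -0.52 for Loxl3, -0.49 for Fkbp14 and -0.43 for Lepre1. Those of Fkbp10 (-0.42), Leprel2 (-0.36), Ddr1 (-0.34), Plod1 (-0.28) and Serpinh1 (-0.26) were smaller. Adamts14 differed by 0.27, an adjusted p of 0.0345 that rose to between 0.053 and 0.0674 without any 1 of white control 3 or 7, white Fgf8b 2 or 8, brown control 13 or brown Fgf8b 10, 12 or 14, to 0.0566 with no filter on low values and to 0.0631 with upper-quartile scaling.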

How the results depend on the processing

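Under every alternative run, each Fgf8b comparison kept its count of members called lower within 1.5 times the main one (23 to 30 in white and 24 to 34 in brown cultures), and 1 member was called higher, except for 2 in white cultures with no filter on low values, where 43 members were tested.

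Values near 0 changed sign. For Col8a1 in white cultures the change was 0.0088 with entries summed and -0.030 to 0.024 leaving out single libraries. In the same way the control depot differences ran from -0.039 to 0.027 for Col5a1, from -0.048 to 0.028 for Col5a3 and from -0.0032 to 0.047 for Col6a3. Col7a1 between treated depots was 0.042 with entries summed and -0.077 to 0.036 without single libraries, and its difference of responses 0.0395 with entries summed. That of Lox was -0.036 with upper-quartile scaling and -0.0203 to 0.053 without single libraries. The cause was not tested. Scaling moved the median over all genes by less than 0.1 log2 units in each comparison.

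No paired analysis was run, because every library carries its own number and no label pairs the libraries. Control and Fgf8b numbers alternate within each depot, and no label states whether neighbouring numbers share a culture. Precision is limited where treated libraries hold few reads (33 to 49 for Col14a1 in white cultures) and by transcript choice: with entries summed, calls of Col24a1 and Col28a1 in white cultures were lost.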
